A study of Nicotiana tabacum with 18 samples.

Results

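The tobacco genes Nitab4.5_0001744g0070 and Nitab4.5_0000816g0130 are the 2 genes, of 69500 in the expression table, that the study's list of K+ channel and transport genes names AKT2. They were taken by that name, with earlier results of these data known, and they are called AKT2a and AKT2b here, in that order. The leaf transcriptomes come from 6 groups of Nicotiana tabacum in 2 crosses that share the male parent GDH11. In one cross, called the G70 cross here, G70 (HP1) was the female parent, G70×GDH11 (H) the hybrid and GDH11 (HP2) the male parent. In the other, the K326 cross, K326 (LP1) was the female parent, K326×GDH11 (L) the hybrid and GDH11, sampled again, the male parent (LP2). All plants were field grown with no treatment, and middle leaves were taken at 70 days. Each group had 3 libraries, and the leaves of 3 randomly chosen plants per plot were mixed before extraction. The study chose H as the hybrid with strong and L as the hybrid with weak heterosis of leaf K+ content.

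AKT2 is a channel of the Shaker family of plasma membrane K+ channels. In Arabidopsis it is found mainly in the phloem and in leaf mesophyll, and it can switch, depending on its phosphorylation, from a weakly inward rectifying channel to one that passes K+ in both directions. In that plant the calcium sensor CBL4 and its protein kinase CIPK6 bring AKT2 to the plasma membrane, and K+ that leaves the sieve tubes through AKT2 helps to drive the reloading of sugar along the phloem. Nicotiana tabacum is an allotetraploid, so many of its genes exist as closely related pairs. Whether AKT2a and AKT2b form such a pair was not checked here, and no sequence of either gene was used. The name AKT2 rests on the study's list, whose query table gives the same Arabidopsis identifier for KAT2 and for AKT2 beside separate AKT2 entries of sorghum and rice, so the naming of the pair is uncertain. Marker genes of phloem or mesophyll were not checked either, since the identifiers carry no gene names. In leaf tissue of this kind, fewer cells of a type and less RNA per cell cannot be told apart.

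The designed sequences that bear on the pair are the qRT-PCR primers of the study, which list AKT2a and no primer for AKT2b. They are shown 5′ to 3′ because they mark which copy was chosen for that assay, and whether they also match AKT2b was not tested.
Nitab4.5_0001744g0070-F: gtctgttaatttgctaactgttgct
Nitab4.5_0001744g0070-R: cagtggggttcttccttggg
The forward primer has 25 bases with a GC content of 36% and the reverse primer has 20 bases with a GC content of 60%.

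Expression is given as FPKM, a fragment count scaled to transcript length and to library size, which allows levels of different genes to be compared per length. The FPKM of a library summed to between 756862 and 818037, and 31474 to 33091 genes reached 1 FPKM in 17 of the 18 libraries. Replicate 2 of LP2 stood apart with 27527 such genes and 44% of genes at 0, against 37.7% to 39.7% at 0 elsewhere. The first principal component of all genes but the pair held 51.2% (G70 cross) and 46% (K326 cross) of the variance. Within the G70 cross it separated libraries across the genotypes. Replicate 1 of HP1 (score 90.8), replicates 1 and 2 of H (66.6 and 65.8) and replicate 1 of HP2 (61.0) were on the positive side, and the other 5 libraries lay between -75.9 and -45.4. Replicate 1 of HP1, replicate 3 of H and replicate 1 of HP2 were therefore each on the opposite side from the other libraries of their group, and the comparisons of this cross are given with and without these 3 libraries. Without them H has libraries on the positive side alone and the parents on the negative side alone, so that the hybrid and the side of the component cannot be told apart in that setting. In the K326 cross replicates 2 and 3 of L (30.7 and 23.9) and of LP2 (172.2 and 14.0) had positive scores, and the 3 LP1 libraries, replicate 1 of L and replicate 1 of LP2 had negative ones. Replicate 1 of L and replicate 1 of LP2 were thus also opposite the other libraries of their groups, but they were left out only 1 at a time. Comparisons across the crosses without the 3 libraries therefore kept all libraries of the K326 cross.

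AKT2a was the more abundant copy in all 18 libraries, and its level varied strongly among libraries of the same genotype. In HP1 it was at 94.7, 48.9 and 60.2 FPKM in replicates 1 to 3 (67.9 ± 23.9, SD, n = 3). In H it was at 155, 80.04 and 42.6 FPKM (92.6 ± 57.3, SD, n = 3). In HP2 it was at 197, 56.2 and 45.5 FPKM (99.7 ± 84.8, SD, n = 3). The highest library of each of these 3 groups was replicate 1, and the range of H lay inside that of HP2 but for its lowest library.

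The highest levels of AKT2a in the K326 cross were in the hybrid. LP1 was at 72.4, 46.8 and 72.9 FPKM (64.0 ± 14.9, SD, n = 3). L was at 75.2, 189 and 218 FPKM (161 ± 75.5, SD, n = 3). LP2 was at 107, 57.4 and 138 FPKM (101 ± 40.5, SD, n = 3). All 3 L libraries were above all 3 LP1 libraries, although replicate 1 of L exceeded the highest LP1 library by little, and L and LP2 overlapped. The share of all genes whose libraries do not overlap between groups was not computed. Overlap or its absence is therefore given here and below as a description only. By mean level the 6 groups were ordered L, LP2, HP2, H, HP1 and LP1, and every neighbouring pair in this order overlapped.

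AKT2b was steadier within groups except in LP2, and its highest levels were in the K326 parent. In LP2 the SD was 47.1% of the mean for AKT2b and 40.2% for AKT2a, and in LP1 these values were alike at 22.2% and 23.3%. In the G70 cross it was at 15.0, 19.8 and 19.98 FPKM in HP1 (18.2 ± 2.85, SD, n = 3), at 20.5, 19.7 and 27.1 FPKM in H (22.5 ± 4.07, SD, n = 3) and at 25.3, 29.2 and 27.5 FPKM in HP2 (27.3 ± 1.98, SD, n = 3). The HP1 and HP2 libraries did not overlap, and the H libraries lay between the lowest HP1 and the highest HP2 library.

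AKT2b in the K326 cross was at 41.2, 29.4 and 46.3 FPKM in LP1 (39.0 ± 8.66, SD, n = 3), at 27.7, 18.4 and 23.7 FPKM in L (23.3 ± 4.64, SD, n = 3) and at 28.1, 10.6 and 17.6 FPKM in LP2 (18.7 ± 8.81, SD, n = 3). The LP1 libraries were above every other library of AKT2b in the series. The margin was small, with replicate 2 of LP1 at 29.42 FPKM and replicate 2 of HP2 at 29.22 FPKM. The order of the group means was LP1, HP2, L, H, LP2 and HP1, in which LP1 did not overlap with HP2 and all other neighbours overlapped. K326 was thus the group in which AKT2a was lowest and AKT2b highest by mean.

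**Figure D1:**
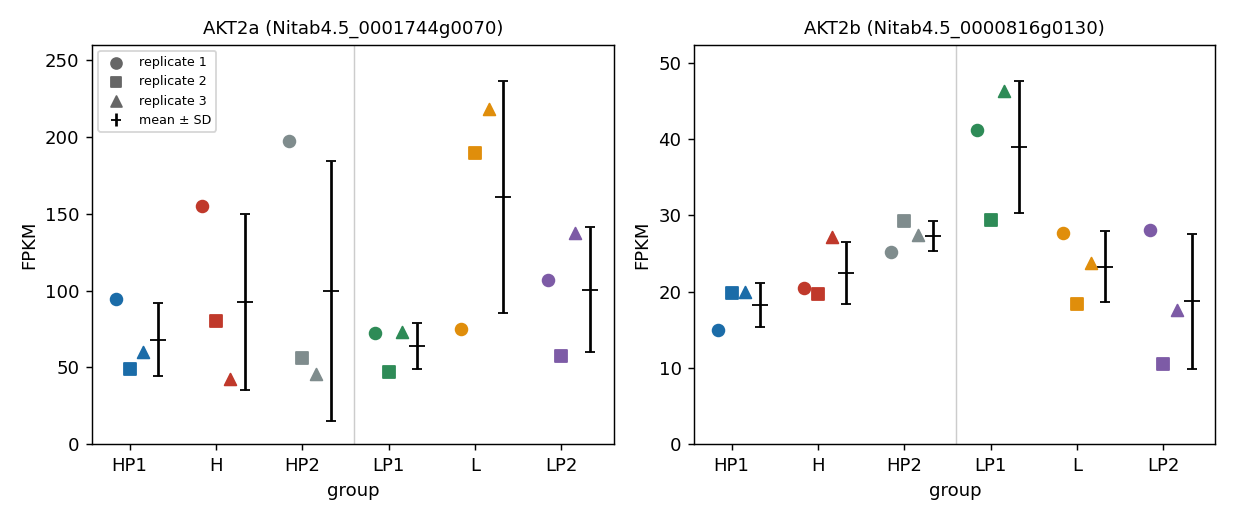
FPKM of AKT2a (left) and AKT2b (right) in each library of the 6 groups, with the mean and SD of 3 libraries beside the points and a line between the crosses; the vertical scales differ. AKT2a spans 42.6 to 218 FPKM with wide ranges inside groups, while AKT2b spans 10.6 to 46.3 FPKM and is highest in LP1.

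The ratio of AKT2a to AKT2b within a library does not depend on how that library was scaled, and it ranged from 1.57 to 10.3 over the 18 libraries, with a median of 3.41. AKT2a therefore held between 61.1% and 91.1% of the summed FPKM of the pair. In LP1 the ratio was nearly constant, at 1.76, 1.59 and 1.57 (1.64 ± 0.103, SD, n = 3). In L it was 2.72, 10.3 and 9.19 (7.40 ± 4.09, SD, n = 3), and in LP2 it was 3.81, 5.44 and 7.83 (5.70 ± 2.02, SD, n = 3). No library of L or LP2 reached down to the ratios of LP1.

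In the G70 cross the ratio was 6.33, 2.47 and 3.01 in HP1 (3.94 ± 2.09, SD, n = 3). It was 7.57, 4.05 and 1.57 in H (4.40 ± 3.01, SD, n = 3), and 7.81, 1.92 and 1.65 in HP2 (3.80 ± 3.48, SD, n = 3). The 3 groups overlapped fully, and each held at least 1 library above 6.

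**Figure D2:**
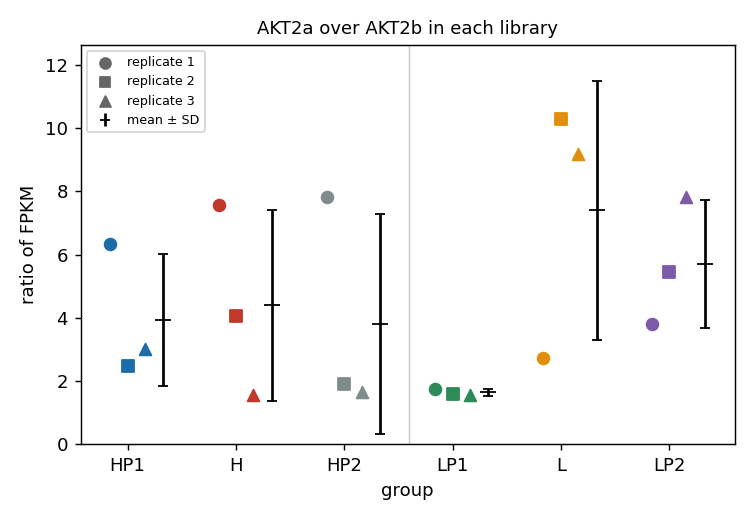
Ratio of the FPKM of AKT2a to that of AKT2b in each library of the 6 groups, with the mean and SD of 3 libraries. The 3 LP1 libraries sit between 1.57 and 1.76, and the other groups spread widely, up to 10.3 in L.

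The log2 ratio of the copies in a hybrid was compared with that in the 6 parental libraries of its cross by an exact permutation test (two-sided), in which 84 arrangements allow a p of 0.0119 at the smallest. In the G70 cross the mean difference was 0.16, a 1.12-fold higher ratio in H (exact permutation p = 0.821). For the K326 cross it was 1.09, a 2.13-fold higher ratio in L, with 2 of 3 L libraries above all 6 parental libraries (exact permutation p = 0.179). Between the crosses the mean log2 ratio differed by -0.19 (G70 cross minus K326 cross, exact permutation p = 0.692, n = 9 and 9). None of these 3 differences passed the test, and the SD of the log2 ratio was 1.06 among the L libraries and 1.01 among the parental libraries of that cross. The parental SD pools LP1 and LP2, whose ratios did not overlap, with mean log2 ratios of 0.71 and 2.45. It therefore holds the difference between the parents as well as the spread between libraries. All 3 L libraries were above LP1, and L overlapped with LP2. Without the 3 libraries of the G70 cross that stood opposite their groups, the difference of H from its parents was 1.33 (exact permutation p = 0.0667, n = 2 and 4, which is the smallest p this number of libraries allows).

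The summed FPKM of the pair is free of how reads were divided between the copies only if both have the same length, which was not checked. That division matters because reads shared by similar copies are divided by an estimate. The sum was highest in L (184 ± 72.4 FPKM, SD, n = 3), followed by HP2 (127 ± 83.1, SD, n = 3), LP2 (119 ± 45.7, SD, n = 3), H (115 ± 54.6, SD, n = 3), LP1 (103 ± 23.4, SD, n = 3) and HP1 (86.2 ± 21.1, SD, n = 3), with overlap between all neighbours. On the log2 scale the sum in H differed from its parents by 0.14 (exact permutation p = 0.81), and that in L by 0.70, or 1.62-fold (exact permutation p = 0.107), with 2 of 3 L libraries above all parental ones. The crosses differed by -0.32 (G70 minus K326, exact permutation p = 0.274). The difference of H from its parents was 0.79 without the 3 libraries (exact permutation p = 0.0667).

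The hybrids were next compared with their parents gene by gene, with limma on log2(FPKM + 1) and Benjamini-Hochberg adjustment over all genes tested. A gene was called at an adjusted p of at most 0.05 with a log2 fold change of 1 or more in either direction. Against the mean of both parents in FPKM, AKT2a in H was 92.6 against 83.8, a difference of 8.79 (SE 41.7). In L it was 161 against 82.3, a difference of 78.5 (SE 45.3), or 95.3% over the mid-parent value. AKT2b in H was 22.5 against 22.8 (SE of the difference 2.55), and in L it was 23.3 against 28.9 (SE 4.46). Of the 24 values that the 2 copies had in 12 comparisons, 0 were called by limma, and 6 had an unadjusted p under 0.05. At that p stood 6.21% of the values of all tested genes in these comparisons, from 3.17% between HP1 and HP2 to 12.6% between L and LP1.

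In the G70 cross the log2 fold change of AKT2a was 0.31 in H against HP1 (SE 0.62, 95% interval -1.10 to 1.71) and 0.02 against HP2 (SE 0.62, -1.39 to 1.43). Against the mid-parent it was 0.16 (SE 0.54, -1.06 to 1.38), and between HP1 and HP2 it was -0.28 (SE 0.62). The adjusted p by limma was 1 in all 4 comparisons, in which 0.488%, 0.421%, 0.482% and 0.462% of the 33991 genes tested were called, in the same order. AKT2b had log2 fold changes of 0.28 (H against HP1), -0.28 (H against HP2) and 0.00 (H against the mid-parent, SE 0.17, 95% interval -0.39 to 0.39), so that H lay midway between its parents. Its largest value in this cross was between the parents, at -0.57 for HP1 against HP2 (SE 0.20, unadjusted p = 0.0191, adjusted p = 1 by limma), where the libraries did not overlap.

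Without replicate 1 of HP1, replicate 3 of H and replicate 1 of HP2, AKT2a was at 155 and 80.04 FPKM in H, above the 4 remaining parental libraries at 45.5 to 60.2 FPKM. Its log2 fold change was then 1.03 against HP1 (SE 0.34, adjusted p = 0.107), 1.13 against HP2 (SE 0.34, adjusted p = 0.0948) and 1.08 against the mid-parent (SE 0.30, 95% interval 0.37 to 1.79, adjusted p = 0.0571), all by limma. These values were not called, while 6.95%, 6.52% and 8.55% of 33033 genes were called in these comparisons without the 3 libraries, and 0.354% between HP1 and HP2. AKT2b was not higher in H in this fit, with -0.23 against the mid-parent (SE 0.15, adjusted p = 0.327) and -0.47 against HP2 (SE 0.18, adjusted p = 0.145). The 3 libraries thus set whether the mean FPKM of AKT2a in H was above both parents or between them. On the log2 scale the mean of H was above both parents with all libraries too, by 0.31 over HP1 and 0.02 over HP2 (SE 0.62 for both). The group means that the authors deposited equal the means of replicates 1 and 2 for HP1 and H and of replicates 2 and 3 for HP2, within 0.0051 FPKM. For AKT2a these deposited means are 71.8 in HP1, 118 in H and 50.8 in HP2, so that H is above both parents, whereas over all 3 libraries H, at 92.6, lies between HP1 at 67.9 and HP2 at 99.7. For AKT2b they are 17.4, 20.1 and 28.4, with H between the parents as over all libraries. The deposited means of the K326 cross equal those of all 3 libraries. The paper's text reports AKT2 in H as down-regulated and overdominant, and it does not say for which copy. In the deposited means neither copy was below both parents in H.

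In the K326 cross the log2 fold change of AKT2a was 1.21 in L against LP1 (SE 0.46, 95% interval 0.18 to 2.24, unadjusted p = 0.0265, adjusted p = 0.325 by limma). It was 0.62 against LP2 (SE 0.46, adjusted p = 0.703) and 0.91 against the mid-parent (SE 0.40, unadjusted p = 0.0458, adjusted p = 0.53). Between LP1 and LP2 it was -0.58 (SE 0.46, adjusted p = 0.561). In these 4 comparisons 0.17%, 0.266%, 0.206% and 0.2% of 33493 genes were called. For AKT2b the direction against LP1 was the opposite, at -0.71 (SE 0.35, adjusted p = 0.453), with 0.38 against LP2 (SE 0.35) and -0.17 against the mid-parent (SE 0.30, 95% interval -0.85 to 0.52). The parents differed by 1.09, LP1 being higher (SE 0.35, unadjusted p = 0.012, adjusted p = 0.376 by limma). Replicate 2 of LP2, which stood apart, was low in both copies, and the median log2 difference of all genes against LP2 was 0.22 for L and 0.20 for LP1. Without that library AKT2a was at 0.27 in L against LP2 and AKT2b at 0.76 in LP1 against LP2 (adjusted p = 0.961 and 0.503 by limma). At an unadjusted p of 0.05 with the same fold threshold, AKT2a in L against LP1 and AKT2b in LP1 against LP2 would be called, beside 6.59% and 6.07% of all genes.

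Across the crosses, AKT2a differed between H and L by -0.84 (SE 0.58, adjusted p = 1) and hardly between G70 and K326 (0.06, SE 0.58). AKT2b was lower in G70 than in K326 by limma's estimate of -1.04 (SE 0.29, unadjusted p = 0.00264, adjusted p = 0.278). The 3 HP1 libraries at 15.0 to 19.98 FPKM did not overlap with the 3 LP1 libraries at 29.4 to 46.3 FPKM. How many of all genes show the same was not computed. Between H and L AKT2b was at -0.04 (SE 0.29). In the comparisons of H with L and of G70 with K326, 0.157% and 0.541% of 34960 genes were called, and at an unadjusted p 1.84% between G70 and K326. Without the 3 libraries the background was 0.165% and 0.427% of 34625 genes, and AKT2b between G70 and K326 was at -0.91 (SE 0.34, adjusted p = 0.943). AKT2a was then at -0.39 between H and L.

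GDH11 was sampled with both crosses, which gives 6 libraries under 1 genotype name. Across them AKT2a ranged from 45.5 to 197 FPKM, a 4.34-fold span, and AKT2b from 10.6 to 29.2 FPKM. The libraries of the 2 GDH11 groups overlapped in both copies, and for AKT2b replicate 1 of LP2 at 28.1 FPKM was above replicates 1 and 3 of HP2. The log2 difference HP2 minus LP2 was 0.62 for AKT2b (SE 0.29, unadjusted p = 0.0493, adjusted p = 0.612 by limma) and -0.24 for AKT2a (SE 0.58, adjusted p = 0.863), where 0.00286% of genes, or 1 gene, were called. The median over all genes was 0.21 in the same direction as AKT2b, and without replicate 2 of LP2 AKT2b was at 0.28. Without the 3 libraries of the G70 cross 0% of genes were called, and AKT2a was at -0.89 (SE 0.48, adjusted p = 0.506).

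The effect of the hybrid, that is hybrid minus mid-parent, was compared between H and L in the fit over all libraries. For AKT2a the effect of H was lower by 0.75 on the log2 scale, with a 95% interval of the difference from -2.26 to 0.76 (SE 0.71, unadjusted p = 0.306, adjusted p = 0.968 by limma). For AKT2b the difference was 0.17 (SE 0.36, 95% interval -0.59 to 0.92, adjusted p = 0.971). In this comparison 0.083% of genes were called, and the median of all genes was -0.17. Without the 3 libraries the difference was 0.16 for AKT2a (SE 0.59, adjusted p = 0.909) and -0.06 for AKT2b (SE 0.41, adjusted p = 0.951), with 0.0838% of genes called. A difference between the strong and the weak hybrid was not detected for either copy, and the interval for AKT2a includes differences of more than 1 on the log2 scale.

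**Figure D3:**
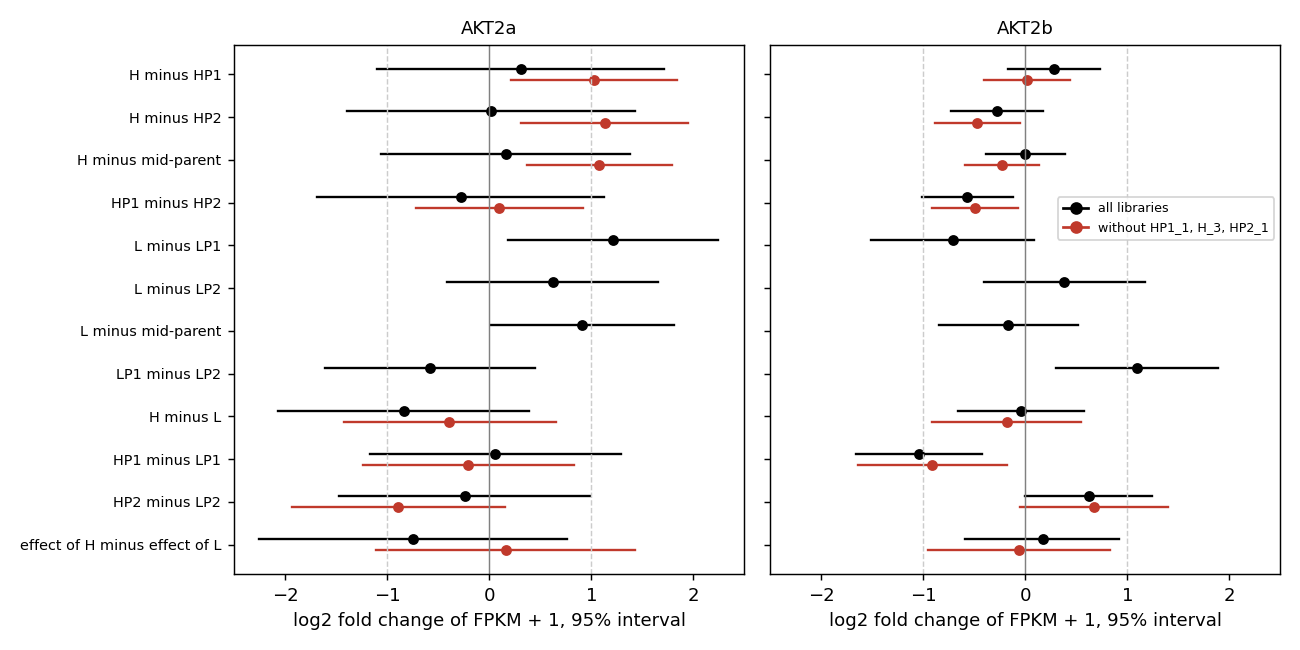
Log2 fold change of AKT2a (left) and AKT2b (right) in 12 comparisons, with 95% intervals from limma, over all libraries (black) and without replicate 1 of HP1, replicate 3 of H and replicate 1 of HP2 (red; the comparisons within the K326 cross hold none of these). Dashed lines mark a log2 fold change of 1 in either direction. The intervals of AKT2a are wider than those of AKT2b, and AKT2a in H against its parents moves from 0.16 to 1.08 at the mid-parent when the 3 libraries are left out.

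The level of AKT2a in a library of the G70 cross went with the library's position on the first principal component, which was computed without the pair. The 4 libraries with positive scores held 80.04 to 197 FPKM of AKT2a, and the 5 with negative scores held 42.6 to 60.2 FPKM, without overlap. Replicate 3 of H, the H library on the negative side, was the lowest of the 9 at 42.6 FPKM. On the positive side H was at 155 and 80.04 FPKM, the single HP1 library at 94.7 and the single HP2 library at 197. On the positive side H was thus above and below the HP1 library and below the HP2 library, and on the negative side H was below all 4 parental libraries. These are few libraries a side, and no test was made on them. The numbers of positive libraries were 1 of 3 in HP1, 2 of 3 in H and 1 of 3 in HP2. AKT2b was at 15.0 to 25.3 FPKM on the positive and at 19.8 to 29.2 FPKM on the negative side, with overlap.

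AKT2a in the K326 cross was at 57.4 to 218 FPKM in the 4 libraries with positive scores and at 46.8 to 107 FPKM in the 5 with negative scores, and the overlap was due to replicate 2 of LP2, the positive library that stood apart. AKT2b was at 10.6 to 23.7 FPKM in the positive and at 27.7 to 46.3 FPKM in the negative libraries. The replicate of L on the negative side held 75.2 FPKM of AKT2a, and the 2 on the positive side held 189 and 218. LP1 had 0 of 3 positive libraries, L had 2 of 3 and LP2 had 2 of 3. The ratio of the copies was apart on the component in both crosses. In the G70 cross it was 4.05 to 7.81 for positive and 1.57 to 3.01 for negative libraries. In the K326 cross it was 5.44 to 10.3 against 1.57 to 3.81. Replicate 2 of LP2 scored 172.2 there and the other positive libraries 30.7, 23.9 and 14.0, so that 1 library weighed on that component. The share of all genes that were apart by side was not computed for either cross. The part that the first component has in the differences between groups was not tested, and what sets apart the libraries on it was not tested.

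**Figure D4:**
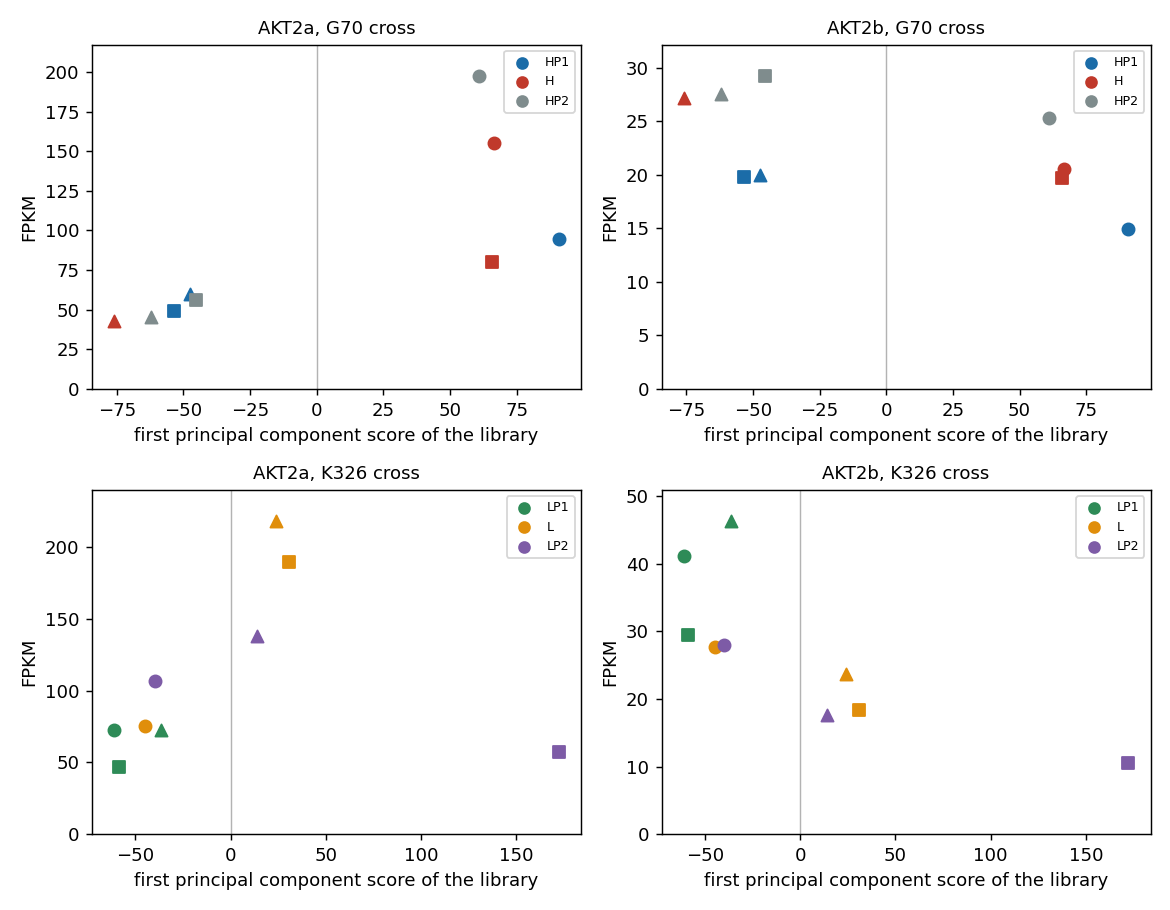
FPKM of AKT2a (left) and AKT2b (right) against the library's score on the first principal component of its cross, computed from all tested genes without the pair; circles, squares and triangles are replicates 1, 2 and 3, and colours are groups. In the G70 cross (top) the 4 libraries on the right hold 80.04 to 197 FPKM of AKT2a and the 5 on the left 42.6 to 60.2 FPKM; in the K326 cross (bottom) the lone point at a score of 172.2 is replicate 2 of LP2.

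Set among all genes, AKT2a was both abundant and variable. Its mean of 97.6 FPKM was at percentile 96.4 of 34960 tested genes, and its SD within groups, 0.77 on the log2 scale, was at percentile 88.8, where the median gene had 0.39. Among the 13870 genes with a mean of at least 10 FPKM the SD of AKT2a was at percentile 84.2. AKT2b had a mean of 24.8 FPKM (percentile 82.2) and an SD within groups of 0.35 (percentile 42.1). Differences between the 6 groups held 28.6% of the variance of AKT2a, near the median gene's 28.9%, and 61.9% of that of AKT2b, at percentile 95.1. AKT2b thus had the larger share of its variance between groups, and AKT2a the larger spread between libraries of a group. Across the 18 libraries the 2 copies had a Pearson r of -0.16 on the log2 scale, which was -0.27 within the G70 cross and -0.20 within the K326 cross, as a description over libraries that share their genotypes. For the deviations from the group means, r was -0.71 (G70 cross) and 0.28 (K326 cross). The K326 value includes replicate 2 of LP2, which stood apart and was low in both copies (57.4 and 10.6 FPKM). It was not computed without that library, so the unlike signs are not read as a difference between the crosses.

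The genes whose pattern was most like that of each copy were sought among 13869 genes with a mean of at least 10 FPKM, by Pearson r of log2(FPKM + 1) over the 18 libraries. AKT2a was followed most closely by Nitab4.5_0005819g0050 (r = 0.98) and Nitab4.5_0002967g0050 (r = 0.96), and most opposed were Nitab4.5_0005514g0010 and Nitab4.5_0007781g0010 (r = -0.92 for both). In all, 491 genes had an r of at least 0.8 with AKT2a and 74 had one of -0.8 or below, together 4.07% of these genes. For AKT2b the closest were Nitab4.5_0004470g0050 (r = 0.89) and Nitab4.5_0000136g0060 (r = 0.87), and the most opposed were Nitab4.5_0002622g0020 (r = -0.91) and Nitab4.5_0001476g0060 (r = -0.88). An r of at least 0.8 with AKT2b was found for 92 genes, and 9 had -0.8 or below, together 0.728%. Without replicate 2 of LP2 the closest gene to AKT2b was at 0.85 and the most opposed at -0.86. All these genes were picked as extremes, over libraries that share groups and the first component. The sources used here give no name for these 8 identifiers.

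The study's list holds 24 further genes of K+ transport. They are the cation/H+ antiporters KEA and NHX1, the vacuolar channels TPC1 and TPK, the outward rectifying Shaker channel GORK of guard cells, the inward rectifying Shaker channels KAT1/2 and the kinases CIPK5 and CIPK6, with roles known from Arabidopsis. By mean FPKM over the 18 libraries, the AKT2 pair ranked 2 and 4 among the 26 genes, and the 2 CIPK6 genes, whose Arabidopsis counterpart acts on AKT2, ranked 1 and 3. Of these 24 genes 23 were tested, and with all libraries 0 of 23 were called by limma in each of the 12 comparisons, where 18 of 276 values had an unadjusted p under 0.05, against 6.21% of the values of all tested genes in the 12 comparisons. The median log2 fold change of the 23 genes was 0.01 for H against HP1, -0.18 for H against HP2, -0.10 for H against the mid-parent and 0.20 for L against the mid-parent.

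Without the 3 libraries, where H and the parents also lie on opposite sides of the first component, 5 of the 23 genes were called lower in H against HP1, 4 against HP2 and 5 against the mid-parent, and 0 higher, beside the backgrounds of 6.95%, 6.52% and 8.55% given above. Both CIPK6 genes were among them in all 3 comparisons. Against the mid-parent, Nitab4.5_0006408g0010 (CIPK6) was at -1.53 on the log2 scale (SE 0.22, adjusted p = 0.0125 by limma) and Nitab4.5_0004815g0040 (CIPK6) at -1.35 (SE 0.23, adjusted p = 0.0185). The others were Nitab4.5_0005906g0010, a TPK gene, with -1.54 (SE 0.23, adjusted p = 0.0129), Nitab4.5_0000462g0210, a CIPK5 gene, with -1.19 (SE 0.18, adjusted p = 0.0132), and Nitab4.5_0006940g0020, a GORK gene, with -1.14 (SE 0.26, adjusted p = 0.0349). The other listed gene of each of these families was not called. For CIPK5 it went the opposite way, at 0.57 (SE 0.26, adjusted p = 0.173 by limma). For GORK it was at -0.66 (SE 0.33, adjusted p = 0.213) and for TPK at -0.81 (SE 0.19, adjusted p = 0.0383). Against HP2 alone a KAT1/2 gene, Nitab4.5_0005812g0020, was also called, at -1.12 (SE 0.23, adjusted p = 0.0369 by limma). With all libraries the CIPK6 genes were at -0.28 (SE 0.66) and 0.00 (SE 0.70) against the mid-parent.

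The CIPK6 genes had the reverse pattern of AKT2a over the libraries of the G70 cross. Nitab4.5_0006408g0010 was at 23.8, 107 and 129 FPKM in HP1, at 34.4, 38.3 and 182 FPKM in H and at 61.5, 79.5 and 116 FPKM in HP2. Nitab4.5_0004815g0040 was at 31.6, 151 and 153 FPKM in HP1, at 46.6, 72.1 and 276 FPKM in H and at 55.0, 134 and 162 FPKM in HP2. In both genes the 4 libraries with positive scores, in which AKT2a was high, were below the 5 others, the positive HP1 and HP2 libraries included, and replicate 3 of H, the lowest for AKT2a, was the highest of the 9.

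In the K326 cross Nitab4.5_0006408g0010 was at 100, 162 and 69.6 FPKM in LP1, at 135, 59.6 and 92.5 FPKM in L and at 113, 4.6 and 52.9 FPKM in LP2. Nitab4.5_0004815g0040 was at 162, 199 and 151 FPKM in LP1, at 157, 48.3 and 80.7 FPKM in L and at 145, 6.54 and 64.0 FPKM in LP2. Replicate 2 of LP2 was the lowest library of the series in both CIPK6 genes and in AKT2b. Over all 18 libraries the r of the CIPK6 genes was -0.21 and -0.39 with AKT2a and 0.70 and 0.78 with AKT2b. Without replicate 2 of LP2 these values were -0.54 and -0.76 with AKT2a and 0.50 and 0.65 with AKT2b, so that 1 library weighed on them.

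Over the 23 tested genes of the list, r with AKT2a ran from -0.74 to 0.85, and 11 of 23 were at 0.5 or more in size, where 26% of all tested genes were. Without replicate 2 of LP2 it was 16 of 23, beside 38.1% of all genes. The highest was an NHX1 gene, Nitab4.5_0003067g0080 (r = 0.85), an antiporter that loads K+ and Na+ into the vacuole, and the lowest was the TPK gene Nitab4.5_0005906g0010 (r = -0.74), of the family that releases K+ from the vacuole. With AKT2b, r ran from -0.26 to 0.81, and 10 of 23 were at 0.5 or more in size (35% of all genes), a number that was 6 of 23 (19.7% of all genes) without replicate 2 of LP2. The highest was a GORK gene, Nitab4.5_0000777g0090 (r = 0.81). The r of these 3 genes was 0.85, -0.81 and 0.70 without that library. The lowest r with AKT2a was then no longer that of the TPK gene but that of a KAT1/2 gene, Nitab4.5_0002275g0070, at -0.89. All these values are descriptions over libraries that share groups and the first component.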

How the data were processed

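Leaves of 6 groups were sequenced in 18 libraries, 3 per group, with the groups and replicate numbers of the labels. Whether the libraries of a group came from separate plots is not given, so p-values measure the spread between these samples. After filtering of short and poor reads, the authors aligned to the K326 genome and used RSEM for gene abundance. The paper's methods name TopHat2, and the submitters' processing notes name HISAT2 and StringTie, with no version or annotation. The authors deposited FPKM with 2 decimals under a name that speaks of raw counts. FPKM carry no depth per gene, so no counting error was computed, and reads common to both copies were divided by RSEM's estimate.

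Values were tested as log2(FPKM + 1) with limma 3.58.1 in R 4.3.3, with an intensity trend and Benjamini-Hochberg adjustment, in 1 fit per cross (9 libraries) and 1 over 18. Genes needed 1 FPKM in at least 3 libraries. Calls needed an adjusted p of at most 0.05 with a log2 fold change of 1 or more in either direction. The paper's Results use the same fold with a P whose adjustment is not named, and its Methods a log2 fold change of 2. The code was tested on simulated data. Copy ratios and sums were compared with exact permutation tests.

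The alternatives were pseudocounts of 0.1, no filter, other scalings, unadjusted p, leaving out libraries and a replicate block. A filter of 2 libraries in the fits without 3 libraries was added after seeing the data. The study's field trial was laid out in blocks, but the labels do not tie numbers to them. Same-numbered libraries deviated together, with every r over 0.1, in HP1 and HP2 (r = 0.58, 0.27 and 0.48), in LP1 and LP2 (0.25, 0.21 and 0.29) and in L and LP2 (0.54, 0.25 and 0.23), but not in H with its parents or in L with LP1. The named genes were the pair, CIPK6 genes, called members and some uncalled members among the study's other K+ genes, and the 2 genes most and least like each copy. Members and lists were chosen with earlier results of these data known. None of the identifiers matched the RefSeq gene table (assembly ASM71507v2), so no coordinates are given.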

Additional observations from a re-analysis of the deposited data

How the results depend on the processing

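Over 30 results and 610 alternatives, 578 kept their direction and side of the threshold, 29 changed sign and 3 passed only without adjustment, and no result past the threshold was lost, as none was called. With an unadjusted p, AKT2a in L against LP1 (1.21), AKT2b in LP1 against LP2 (1.09) and AKT2b in HP1 against LP1 (-1.04) passed. Without replicate 1 of HP1, replicate 3 of H and replicate 1 of HP2, AKT2a turned to 0.10 in HP1 against HP2 and to -0.21 in HP1 against LP1, and the difference between the effects of H and L turned to 0.16 for AKT2a and to -0.06 for AKT2b, with the same values under the added filter. AKT2a in H against HP2 was -0.01 after quantile normalization. AKT2b in H against L was 0.05 with median-of-ratios scaling and 0.01 after quantile normalization. The largest move of the median of all genes was 0.23 in size with median-of-ratios scaling and 0.21 with quantile normalization, both in L against LP2. Leaving out 1 library at a time gave AKT2a ranges of -0.16 to 0.76 in H against HP1, -0.44 to 0.67 in H against HP2, -0.30 to 0.62 in H against the mid-parent, -0.68 to 0.36 in HP1 against HP2, -0.21 to 0.26 in HP1 against LP1 and -0.89 to 0.16 in HP2 against LP2. It gave -0.20 to 0.09 for AKT2b in H against L, -0.36 to 0.77 for the log2 ratio of H against its parents and -0.22 to 0.45 for their summed FPKM. Values that kept their sign also moved. For AKT2a, the difference between the effects of H and L ran from -1.22 without replicate 1 of L to -0.29 without replicate 3 of H, H against L from -1.32 to -0.39 without the same libraries, L against LP2 from 0.27 without replicate 2 of LP2 to 1.09 without replicate 1 of L, and LP1 against LP2 from -0.94 to -0.32. The log2 ratio of L against its parents ran from 0.74 without replicate 2 of L to 1.70 without its replicate 1. Without replicate 1 of H AKT2b in H against L, the log2 ratio of H and its summed FPKM were 0.01, -0.36 and -0.22, and AKT2a in H was at -0.16 against HP1, -0.44 against HP2 and -0.30 against the mid-parent. The cause was not tested. With a replicate block the SE of AKT2a in H against HP1 was 0.31, where it was 0.62 without it, at the same log2 fold change of 0.31, and the block changed no call. With 3 libraries per group and an SD within groups of 0.77 for AKT2a, the intervals of AKT2a include log2 changes over 1 in most comparisons. Changes of that size in AKT2a are therefore not excluded there. For AKT2b the interval was narrower in H against the mid-parent, at -0.39 to 0.39. The smallest change that could have been detected was not computed.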
